A study of Mus musculus with 12 samples.

Results

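The 36 genes described here carry out glucose uptake, glycolysis and the handling of its end product, or belong to the transcriptional response to low oxygen. They were taken by gene symbol from a count table of 32285 genes. All 36 were in the table, and all 36 were among the 12765 genes that passed the expression filter and were tested. The cells were mouse embryonic stem cells of 4 genotypes, each sequenced as 3 libraries. The genotypes were a double knockout of DHX36 and FANCJ, a knockout of DHX36 alone, a knockout of FANCJ alone, and wild type. All cells were of the IB10 line, which derives from 129/Ola mice. All were kept untreated on gelatin with serum, leukaemia inhibitory factor and medium conditioned by Buffalo rat liver cells. The libraries were made from total RNA by a method like CEL-Seq2, which tags the 3′ ends of polyadenylated transcripts. The labels give neither the number of clones behind each knockout nor whether its 3 libraries were separate cultures. The p-values therefore measure the spread between these libraries, which may be technical.

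Glycolysis breaks glucose down to pyruvate in a fixed series of enzyme steps, most of them served by several isoenzymes from separate genes. Pyruvate is then reduced to lactate and exported, or enters mitochondria, where the pyruvate dehydrogenase complex passes it to the citric acid cycle. Hypoxia-inducible factor (HIF) raises transcription of many of these genes when oxygen is low. In normal oxygen, prolyl hydroxylases mark the HIF alpha subunits for binding by the VHL protein and degradation. Mouse embryonic stem cells use both glycolysis and respiration, and lean more on glycolysis as they leave the naive state. DHX36 is a helicase that unwinds G-quadruplexes, four-stranded structures of guanine-rich nucleic acid, in RNA and DNA. FANCJ, whose mouse gene is Brip1, is a DNA helicase of the Fanconi anaemia pathway that also unwinds G-quadruplexes.

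HIF binds DNA at a core of ACGTG or GCGTG, and promoters of glycolytic genes are known for it. Only the ACGTG form was searched for here. RefSeq start sites on GRCm38.p6 were available for 33 of the 36 genes, not for Slc2a3, Bnip3l or Ndrg1. The 250 bases before each start were searched for ACGTG on both strands, where the other strand reads CACGT. The palindrome CACGTG counts as a match on both strands and is also the E-box bound by MYC and related factors. ACGTG was found before at least 1 start site of 21 of the 33 genes (63.6%), against 18.5% of all 27025 genes with a promoter in the reference. By window, 47.1% of 51 windows held it, against 16.6% of all 32851 windows of the same length. CACGTG was found at 24.2% of the 33 genes, against 6.86% of all genes. A G-quadruplex motif, 4 runs of at least 3 G with loops of 1 to 7 bases on either strand, was found at 45.5% of the 33 genes, against 18.5% of all genes. The windows of the 33 genes had a median GC content of 62.4%, against 52.4% for all windows. All 33 genes had passed the expression filter, while the reference also holds genes that did not. Some of the 33 were chosen as part of the response to low oxygen, in which HIF acts. The part of these choices and of GC content in the differences was not tested. A match describes the letters only and was not tested as a site.

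The promoters below are examples from genes that changed with DHX36 loss, and show the letters of some higher and some lower genes. Those of Ak4, Slc2a1, Pfkfb3 and Aldoc, which also changed in both comparisons, are not printed. Each is the 250 bases before a RefSeq start, 5′ to 3′ on the gene's strand, with matches to ACGTG or CACGT in capitals. Bnip3, Hk2, Pfkp and Pdk1 were higher and Slc16a1 and Pdha1 lower in both comparisons for DHX36 loss that are described below.
Bnip3 (chr7:138909507-138909756, minus strand): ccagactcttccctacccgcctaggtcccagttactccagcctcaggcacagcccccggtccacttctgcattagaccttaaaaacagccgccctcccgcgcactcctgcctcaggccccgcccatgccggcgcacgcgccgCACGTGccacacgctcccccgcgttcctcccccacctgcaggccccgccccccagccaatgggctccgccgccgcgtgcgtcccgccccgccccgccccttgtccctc
Hk2 (chr6:82774455-82774704, minus strand): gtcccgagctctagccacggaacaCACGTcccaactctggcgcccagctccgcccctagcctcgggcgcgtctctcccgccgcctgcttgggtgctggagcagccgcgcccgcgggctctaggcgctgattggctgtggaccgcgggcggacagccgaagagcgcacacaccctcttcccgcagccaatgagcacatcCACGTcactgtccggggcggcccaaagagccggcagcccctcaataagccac
Pfkp (chr13:6648772-6649021, minus strand): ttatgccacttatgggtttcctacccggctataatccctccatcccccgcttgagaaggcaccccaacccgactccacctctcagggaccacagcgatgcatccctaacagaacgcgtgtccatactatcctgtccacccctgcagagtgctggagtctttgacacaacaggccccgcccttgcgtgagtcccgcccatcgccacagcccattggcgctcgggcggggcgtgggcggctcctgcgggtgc
Pdk1 (chr2:71872974-71873223, plus strand): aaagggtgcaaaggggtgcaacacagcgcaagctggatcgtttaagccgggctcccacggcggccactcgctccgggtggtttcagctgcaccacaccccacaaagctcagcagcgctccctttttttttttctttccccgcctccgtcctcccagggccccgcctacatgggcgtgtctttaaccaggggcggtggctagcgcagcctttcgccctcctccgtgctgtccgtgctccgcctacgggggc
Slc16a1 (chr3:104638414-104638663, plus strand): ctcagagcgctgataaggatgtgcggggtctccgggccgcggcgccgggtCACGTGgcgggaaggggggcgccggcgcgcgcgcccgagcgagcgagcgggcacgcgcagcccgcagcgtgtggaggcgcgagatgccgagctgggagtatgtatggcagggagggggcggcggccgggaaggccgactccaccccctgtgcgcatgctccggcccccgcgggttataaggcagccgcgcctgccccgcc
Pdha1 (chrX:160138431-160138680, minus strand): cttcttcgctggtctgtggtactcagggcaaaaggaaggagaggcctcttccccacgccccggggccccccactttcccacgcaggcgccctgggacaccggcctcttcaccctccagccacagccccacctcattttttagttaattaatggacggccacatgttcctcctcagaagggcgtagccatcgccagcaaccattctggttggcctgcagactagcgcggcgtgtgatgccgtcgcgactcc
The Bnip3 and Slc16a1 windows hold CACGTG, and the Hk2 window holds CACGT at 2 places. The Pfkp, Pdk1 and Pdha1 windows hold no match to ACGTG. Each of them holds GCGTG, which was not searched for, as do the Bnip3 and Slc16a1 windows. Bnip3 and Pdha1 also have the G-quadruplex motif. Over the genes with a promoter in the reference, ACGTG was found at 3 of 5 that were higher in both comparisons and at 3 of 5 that were lower in both. The G-quadruplex motif was found at 2 of these 5 higher genes and at 3 of the 5 lower ones.

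Total counts ran from 4284785 to 14721931 per library. The double knockout libraries, at 10915924 counts or more, were all deeper than the wild-type ones, at 5792862 or fewer. Mitochondrial genes took 10.0 to 13.2% of counts. The 36 genes together took 0.604 to 0.723% of counts. Levels are given as CPM, the count divided by the normalised library total and multiplied by 1000000, and n is 3 libraries per genotype throughout. Dhx36 averaged 13.9 ± 1.53 CPM in the double knockout, 10.4 ± 1.45 CPM in the DHX36 knockout, 55.5 ± 3.56 CPM in the FANCJ knockout and 54.1 ± 3.78 CPM in wild type (SD). Brip1 averaged 0.413 ± 0.294 CPM in the double knockout, 6.92 ± 0.485 CPM in the DHX36 knockout, 0.337 ± 0.252 CPM in the FANCJ knockout and 6.86 ± 0.154 CPM in wild type (SD). Each targeted transcript was lower in the libraries labelled as its knockout. The labels do not say which part of either gene was disrupted, so this checks the transcript and not the protein. All 10 embryonic stem cell markers examined, among them Pou5f1, Nanog and Sox2, were counted in every genotype, with a summed level of 6762 to 7000.3 CPM in the double knockout, 5872 to 5979.5 CPM in the DHX36 knockout, 4608 to 4826 CPM in the FANCJ knockout and 5080.1 to 5201 CPM in wild type.

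The loss of DHX36 could be read from 2 separate sets of libraries, as the DHX36 knockout over wild type and as the double knockout over the FANCJ knockout. Differences are log2 fold changes, so that 1 is a 2-fold difference, with adjusted p-values over all 12765 genes and a threshold of 0.05. In the DHX36 knockout over wild type, 10 of the 36 genes were higher and 6 were lower, 44.4% in all, where 24.4% of all tested genes changed. The 36 genes were chosen with earlier results of these data known. An excess over all tested genes, here and below, may therefore come from that choice and was not tested. By direction, 12.8% of all tested genes were higher and 11.6% were lower. The libraries of these genotypes did not overlap for 20 of the 36 (55.6%), against 37.6% of all tested genes. The median log2 fold change was 0.12 over the 36 genes and 0.00 over all tested genes. In bulk libraries fewer cells of a type cannot be told apart from less RNA per cell, and the markers of cell state described at the end differed between genotypes too. In the double knockout over the FANCJ knockout, 7 of the 36 were higher and 11 were lower, 50% in all, where 36.8% of all tested genes changed (18.3% higher, 18.5% lower). Libraries did not overlap for 18 of the 36 (50%), against 48.7% of all tested genes. The median there was -0.12 over the 36 genes and 0.02 over all tested genes. Hk2, Pfkp, Pdk1, Bnip3, Ndrg1 and Ak4 were higher in both comparisons. Slc2a1, Slc2a3, Slc16a1, Pfkfb3, Aldoc and Pdha1 were lower in both. Tpi1 was called in opposite directions, and 15 of the 36 (41.7%) were called in neither. Of all tested genes, 7.49% were higher in both, 7.32% lower in both, 0.627% called in opposite directions and 54.2% called in neither, against 16.7%, 16.7% and 2.78% of the 36 for the first 3 of these. Across the 36 genes the fold changes of both comparisons had a Pearson correlation of 0.83 and a Spearman correlation of 0.66, against 0.58 and 0.56 across all tested genes. Genes are not independent replicates, and the points of one comparison share libraries.

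**Figure D1:**
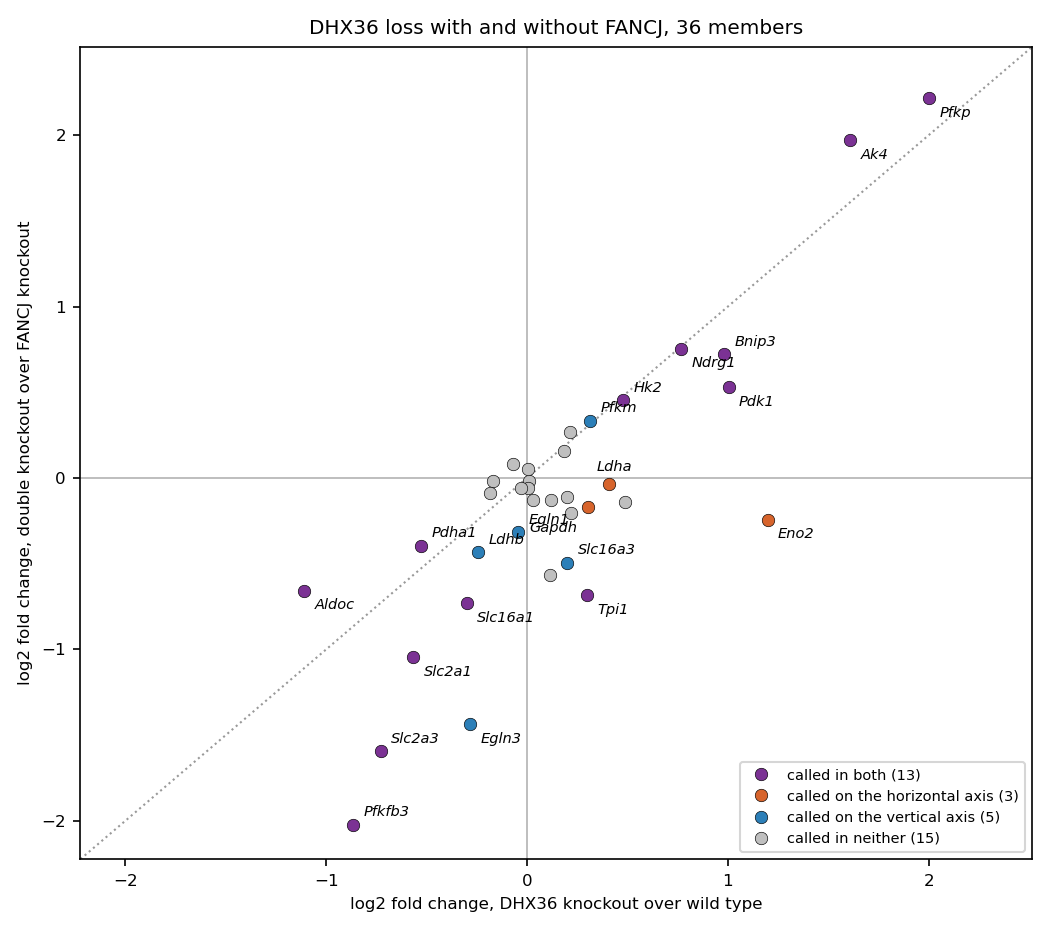
Each point is 1 of the 36 genes, with its log2 fold change in the DHX36 knockout over wild type (horizontal) and in the double knockout over the FANCJ knockout (vertical). Purple points passed an adjusted p of 0.05 in both comparisons, orange in the horizontal one, blue in the vertical one and grey in neither, and the dotted line marks equal values. Pfkp and Ak4 lie farthest up and to the right, Pfkfb3 and Slc2a3 lowest, and Tpi1 is the purple point with opposite signs.

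**Figure D2:**
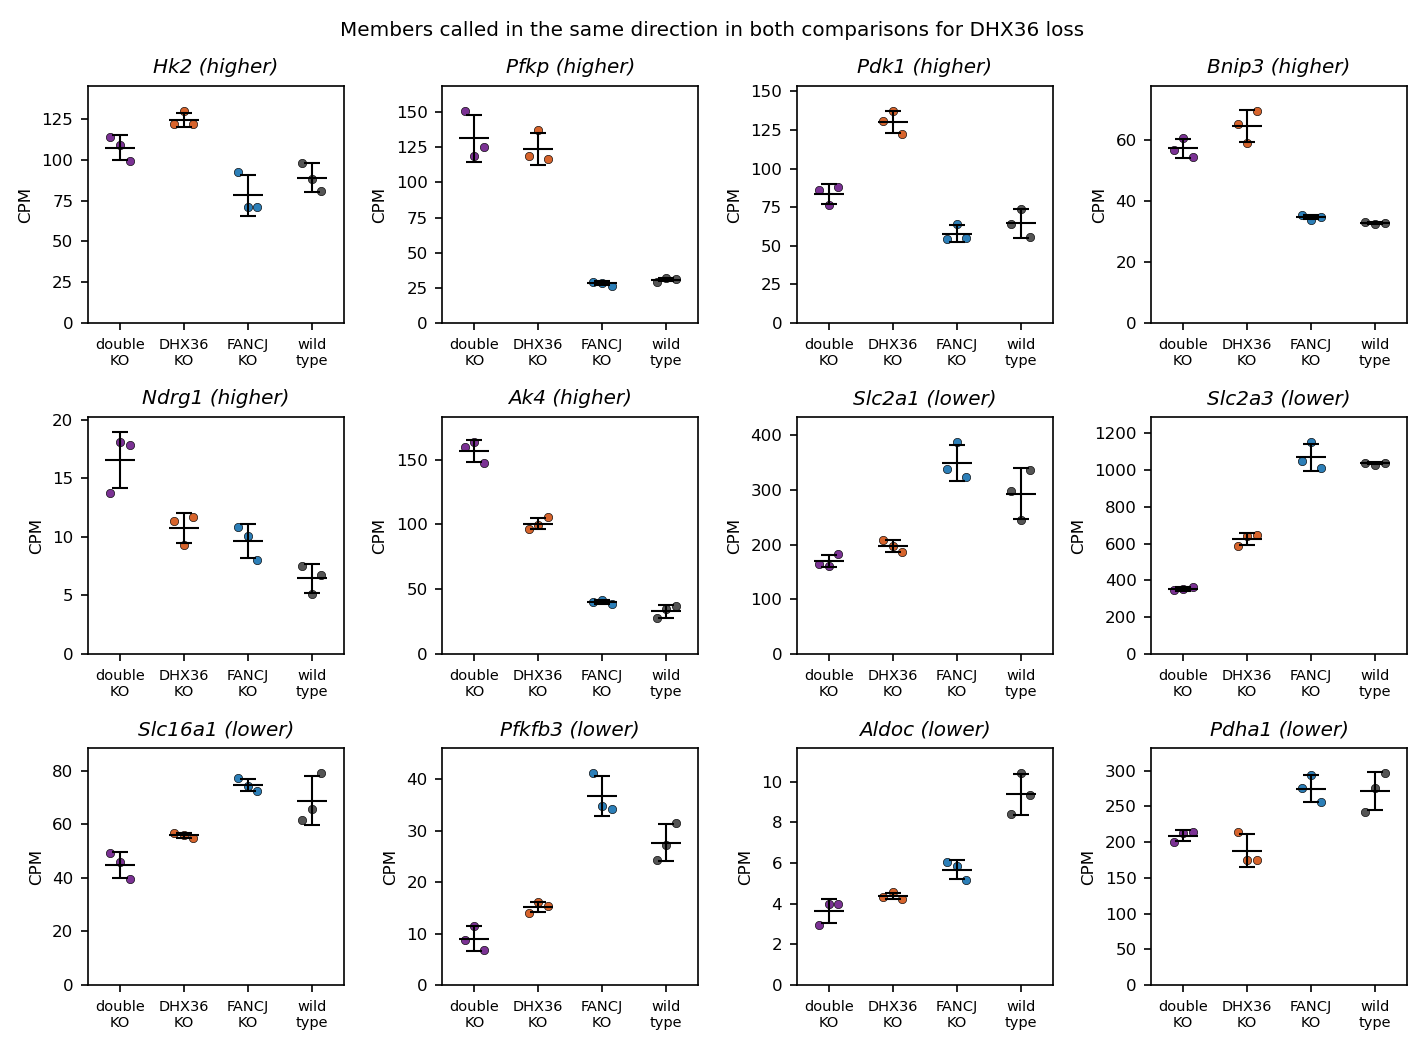
CPM of the 12 genes called in the same direction in both comparisons for DHX36 loss, with 1 point per library, the mean as a long bar and the SD as whiskers (n = 3 per genotype). For the 6 higher genes the libraries without DHX36 lie above those of their matched genotype with DHX36, and for the 6 lower genes they lie below.

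Of the 4 glucose and lactate transporter genes, 3 fell in the DHX36 knockout over wild type and all 4 fell in the double knockout over the FANCJ knockout. Counts for this and the following groups are to be read against the 24.4% and 36.8% of all tested genes that changed in these comparisons. Slc2a3 (chr6:122727809-122801640, GRCm38 throughout) encodes the high-affinity glucose transporter GLUT3. It had 346, 352 and 364 CPM in the double knockout, 585, 640.0 and 649 CPM in the DHX36 knockout, 1048, 1149.6 and 1008 CPM in the FANCJ knockout and 1039, 1029 and 1039 CPM in wild type. The double knockout was lowest in every library and the DHX36 knockout lay between it and the overlapping FANCJ knockout and wild-type libraries. Its log2 fold change was -0.73 (SE 0.08, edgeR adjusted p = 3.74e-07) in the DHX36 knockout over wild type. It was -1.59 (SE 0.08, edgeR adjusted p = 1.50e-12) in the double knockout over the FANCJ knockout, where the level was 3.02-fold lower. Slc2a1 (chr4:119108711-119137983) encodes the basal glucose transporter GLUT1. It had 165, 161 and 183 CPM in the double knockout, 209, 198 and 186 CPM in the DHX36 knockout, 338, 387 and 323 CPM in the FANCJ knockout and 297, 244 and 337 CPM in wild type. All 6 libraries without DHX36 lay below all 6 with it. The log2 fold changes were -0.57 (SE 0.10, edgeR adjusted p = 3.36e-04) in the DHX36 knockout over wild type and -1.04 (SE 0.10, edgeR adjusted p = 6.15e-08) in the double knockout over the FANCJ knockout.

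The lactate and pyruvate carrier MCT1 is encoded by Slc16a1 (chr3:104638668-104658462), whose promoter is printed above. It had 49.2, 46.02 and 39.7 CPM in the double knockout, 56.8, 55.96 and 54.8 CPM in the DHX36 knockout, 77.2, 74.5 and 72.5 CPM in the FANCJ knockout and 61.7, 65.8 and 79.03 CPM in wild type. Libraries without DHX36 were again all below those with it. The log2 fold change was -0.30 (SE 0.10, edgeR adjusted p = 0.0412) in the DHX36 knockout over wild type. It was -0.73 (SE 0.10, edgeR adjusted p = 6.49e-06) in the double knockout over the FANCJ knockout. The first of these calls was lost without wild-type replicate 2 or 3, without any DHX36 knockout replicate or without double knockout replicate 2 (log2 fold change -0.34 to -0.20, edgeR adjusted p = 0.0513 to 0.202). Slc16a3 (chr11:120948480-120960868) encodes MCT4, the lactate exporter of highly glycolytic cells. It had 10.3, 7.01 and 8.98 CPM in the double knockout, 11.1, 13.1 and 11.998 CPM in the DHX36 knockout, 11.8, 11.3 and 14.4 CPM in the FANCJ knockout and 11.5, 10.1 and 9.82 CPM in wild type. The double knockout lay below both single knockouts and overlapped wild type. Its log2 fold change was 0.20 (edgeR adjusted p = 0.445) in the DHX36 knockout over wild type and -0.49 (SE 0.16, edgeR adjusted p = 0.0214) in the double knockout over the FANCJ knockout. That call was lost without FANCJ knockout replicate 3 (-0.40, edgeR adjusted p = 0.0946) or without double knockout replicate 2 (-0.35, edgeR adjusted p = 0.119).

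Of the 7 genes of the first steps of glycolysis, from hexokinase to phosphofructokinase, 2 rose and 1 fell in the DHX36 knockout over wild type, and 3 rose and 1 fell in the double knockout over the FANCJ knockout. Pfkp (chr13:6579768-6648777) encodes the platelet isoform of phosphofructokinase, the committing step of glycolysis. It had 151, 119 and 125 CPM in the double knockout, 119, 137 and 116 CPM in the DHX36 knockout, 29.3, 28.8 and 26.6 CPM in the FANCJ knockout and 29.4, 31.8 and 31.6 CPM in wild type. Its lowest library without DHX36 stood far above its highest library with DHX36. The log2 fold changes were 2.00 (SE 0.11, edgeR adjusted p = 4.59e-11) in the DHX36 knockout over wild type and 2.21 (SE 0.11, edgeR adjusted p = 1.50e-12) in the double knockout over the FANCJ knockout, which are 4.002-fold and 4.64-fold higher levels. The muscle and liver isoforms, Pfkm at 16.7 to 26.95 CPM and Pfkl at 21.5 to 31.9 CPM, differed less. Pfkm was 0.31 (edgeR adjusted p = 0.103) in the first comparison and rose by 0.33 (SE 0.13, edgeR adjusted p = 0.0473) in the second, a call that was lost without any 1 of 9 of the 12 libraries in turn, down to 0.21 (edgeR adjusted p = 0.271) without FANCJ knockout replicate 2. Pfkl was not called in either, at 0.21 (edgeR adjusted p = 0.243) and 0.27 (edgeR adjusted p = 0.0826).

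Hexokinase traps glucose in the cell as glucose 6-phosphate, and its isoform HK2 is the one most tied to rapid growth. Hk2 (chr6:82725025-82774454) had 114, 109 and 98.96 CPM in the double knockout, 122, 129.6 and 122 CPM in the DHX36 knockout, 92.7, 70.8 and 71.3 CPM in the FANCJ knockout and 98.1, 88.4 and 80.7 CPM in wild type. Each genotype without DHX36 lay above its matched genotype with DHX36. It rose by 0.48 (SE 0.11, edgeR adjusted p = 0.00187) in the DHX36 knockout over wild type and by 0.45 (SE 0.10, edgeR adjusted p = 0.00158) in the double knockout over the FANCJ knockout. With all libraries thinned to 4284785 counts the second was 0.29 (edgeR adjusted p = 0.0717). Hk1, at 17.9 to 40.98 CPM over the 12 libraries, was not called, at log2 fold changes of 0.20 (SE 0.21) and -0.11 (SE 0.20). Gpi1, which interconverts glucose and fructose 6-phosphate, had 105 to 127 CPM and was not called either, at -0.17 (SE 0.08) and -0.02 (SE 0.08). Pfkfb3 (chr2:11471433-11554077) makes fructose 2,6-bisphosphate, the activator of phosphofructokinase, and fell where Pfkp rose. It had 8.71, 11.5 and 6.85 CPM in the double knockout, 14.1, 16.1 and 15.4 CPM in the DHX36 knockout, 41.2, 34.9 and 34.2 CPM in the FANCJ knockout and 24.3, 27.2 and 31.6 CPM in wild type. The double knockout was lowest, the DHX36 knockout next, wild type above it and the FANCJ knockout highest, with no overlap between any pair of genotypes. Its log2 fold change was -0.87 (SE 0.16, edgeR adjusted p = 3.69e-04) in the DHX36 knockout over wild type and -2.02 (SE 0.15, edgeR adjusted p = 1.03e-09) in the double knockout over the FANCJ knockout.

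From aldolase to pyruvate kinase, 3 of the 9 genes rose and 1 fell in the DHX36 knockout over wild type, and none rose and 2 fell in the double knockout over the FANCJ knockout. The other 5 were called in no comparison. Pgam1, phosphoglycerate mutase, was at 1797 to 2128 CPM over the 12 libraries, Aldoa at 662 to 779.6 CPM, Pgk1 at 307 to 372 CPM, Pkm at 203 to 330.1 CPM and Eno1 at 104 to 134 CPM. Their log2 fold changes in the DHX36 knockout over wild type were -0.03 (SE 0.08) for Pgam1, 0.01 (SE 0.08) for Aldoa, 0.03 (SE 0.08) for Pgk1, 0.01 (SE 0.14) for Pkm and 0.01 (SE 0.09) for Eno1. In the double knockout over the FANCJ knockout they were -0.06 (SE 0.08), -0.01 (SE 0.08), -0.13 (SE 0.08), 0.05 (SE 0.14) and -0.06 (SE 0.08) in the same order. Aldoc (chr11:78322968-78327781), the aldolase isoform of brain, had 2.97, 3.98 and 4.001 CPM in the double knockout, 4.33, 4.57 and 4.25 CPM in the DHX36 knockout, 6.05, 5.84 and 5.15 CPM in the FANCJ knockout and 8.4001, 10.4 and 9.35 CPM in wild type. It was low everywhere, highest in wild type, and lower in each knockout without overlap. It fell by 1.11 (SE 0.20) in the DHX36 knockout over wild type (edgeR adjusted p = 3.72e-04) and by 0.66 (SE 0.20) in the double knockout over the FANCJ knockout (edgeR adjusted p = 0.0148). The second call was lost without FANCJ knockout replicate 1 (-0.62, edgeR adjusted p = 0.0584) or double knockout replicate 1 (-0.52, edgeR adjusted p = 0.0802).

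Triose phosphate isomerase was the gene called in opposite directions. Tpi1 (chr6:124810586-124814296) had 71.5, 69.7 and 77.0 CPM in the double knockout, 161, 196 and 139 CPM in the DHX36 knockout, 121, 122 and 106 CPM in the FANCJ knockout and 126, 149 and 125 CPM in wild type. All double knockout libraries lay below all others. It was 0.30 (SE 0.11, edgeR adjusted p = 0.0495) in the DHX36 knockout over wild type, where the libraries overlapped, and -0.68 (SE 0.11, edgeR adjusted p = 4.38e-05) in the double knockout over the FANCJ knockout. The first call was lost without any 1 of 10 of the 12 libraries in turn, with log2 fold changes of 0.16 to 0.31 (edgeR adjusted p = 0.0501 to 0.310). Gapdh (chr6:125161715-125166467), the next enzyme, had 239, 309 and 333 CPM in the double knockout, 498, 429 and 446 CPM in the DHX36 knockout, 326, 301 and 366 CPM in the FANCJ knockout and 382, 353 and 379 CPM in wild type. The DHX36 knockout was highest in every library. Its log2 fold change was 0.30 (SE 0.11, edgeR adjusted p = 0.0409) in the DHX36 knockout over wild type and -0.17 (edgeR adjusted p = 0.214) in the double knockout over the FANCJ knockout. The call was lost without any wild-type replicate, DHX36 knockout replicate 1 or 3, or FANCJ knockout replicate 1 (0.23 to 0.32, edgeR adjusted p = 0.0535 to 0.176). Transcript ends of 99 other annotated genes are at least 95% identical to that of Gapdh over 200 or more of the last 400 bases, so its counts are uncertain. Only 3 of them are in the count table, with 277 counts in all against 35134 for Gapdh. Eno2 (chr6:124760053-124769673), the neuronal enolase, had 1.01, 1.11 and 0.889 CPM in the double knockout, 1.89, 2.84 and 2.12 CPM in the DHX36 knockout, 1.29, 0.929 and 1.44 CPM in the FANCJ knockout and 1.11, 0.882 and 0.935 CPM in wild type. It was between 0.882 and 1.44 CPM outside the DHX36 knockout, where it was higher by 1.20 (SE 0.41, edgeR adjusted p = 0.038) over wild type. This call was lost without any wild-type replicate or DHX36 knockout replicate 2 or 3 (1.04 to 1.29, edgeR adjusted p = 0.0721 to 0.128). In the double knockout over the FANCJ knockout Eno2 was at -0.24 (edgeR adjusted p = 0.663).

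The enolase copy Eno1b shares its transcript end with Eno1 and held 15446 counts against 11804 for Eno1 over all libraries, so the division of reads between them is uncertain. With Eno1b added, Eno1 was at -0.20 (edgeR adjusted p = 0.0733) in the DHX36 knockout over wild type, and it was lower in the double knockout over wild type (-0.23, edgeR adjusted p = 0.0279). Summed over the 17 enzyme genes from hexokinase to lactate dehydrogenase, the level was 4689 ± 219 CPM in the double knockout, 5097 ± 132 CPM in the DHX36 knockout, 4761 ± 76.8 CPM in the FANCJ knockout and 4745 ± 139 CPM in wild type (SD, n = 3). The DHX36 knockout libraries were at 4944 to 5184 CPM, above the wild-type libraries at 4663 to 4905 CPM. Pgam1 alone averaged 1933 to 2044 CPM per genotype within this sum, which leaves out Eno1b.

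**Figure D3:**
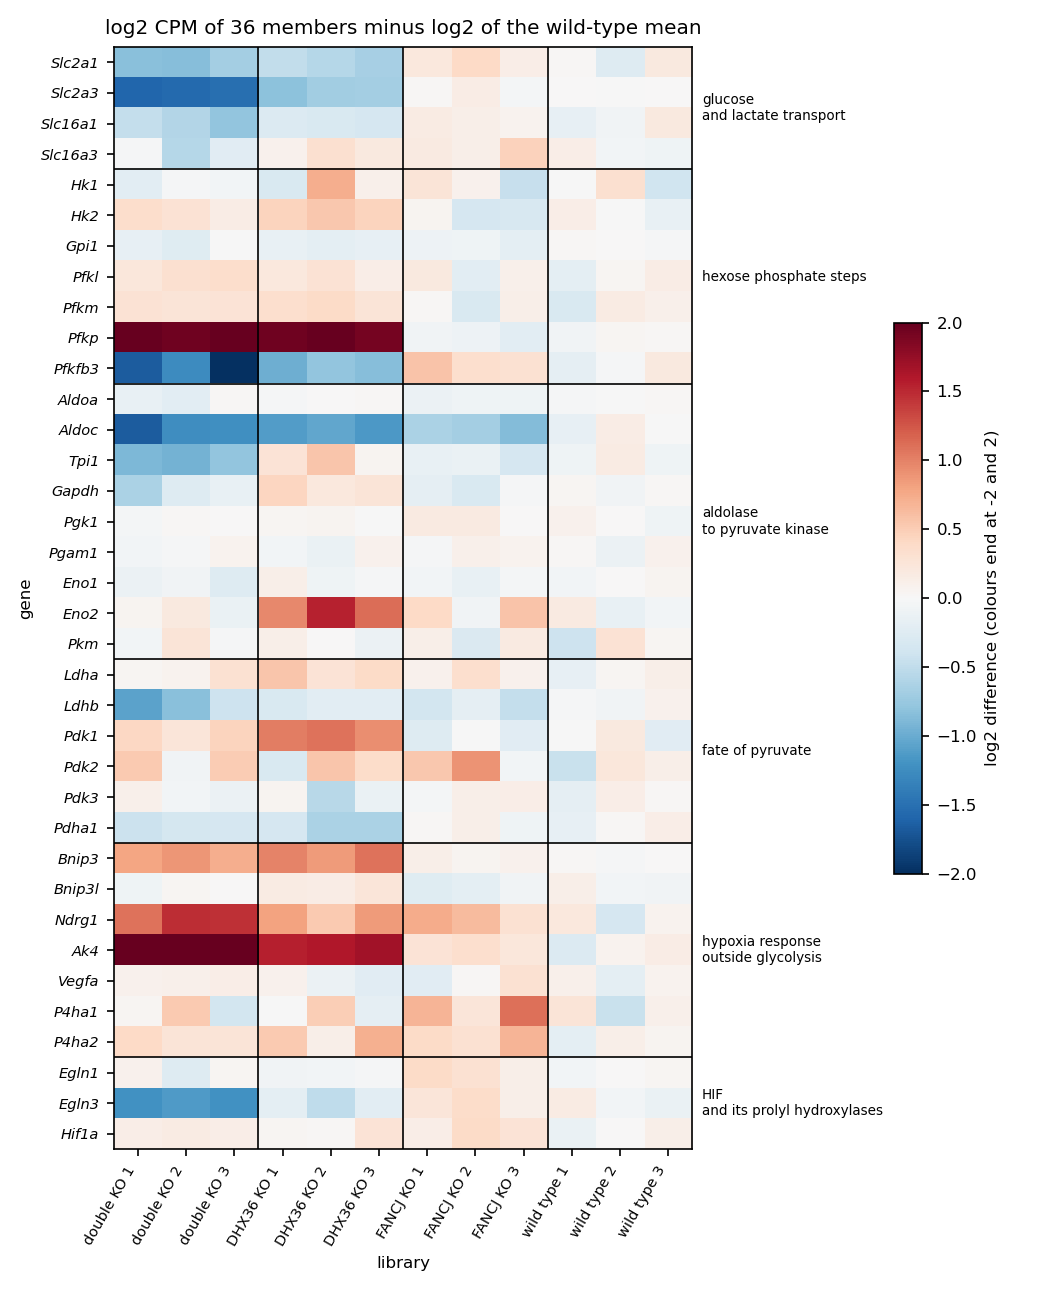
Colour gives the log2 CPM of each of the 36 genes (rows, grouped by role) in each of the 12 libraries (columns) minus the log2 of the wild-type mean, with colours ending at -2 and 2. The double knockout and DHX36 knockout columns share red rows at Pfkp, Pdk1, Bnip3, Ndrg1 and Ak4 and blue rows at Slc2a1, Slc2a3, Pfkfb3 and Aldoc, while most rows from Aldoa to Pkm are pale.

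At the fate of pyruvate, a kinase of pyruvate dehydrogenase rose and a subunit of that complex fell. Of 6 genes, 2 rose and 1 fell in the DHX36 knockout over wild type, and 1 rose and 2 fell in the double knockout over the FANCJ knockout. Pdk1 (chr2:71873224-71903858), a HIF target that inactivates pyruvate dehydrogenase by phosphorylation, had 86.3, 76.4 and 87.9 CPM in the double knockout, 131, 137 and 122 CPM in the DHX36 knockout, 54.2, 64.1 and 54.99 CPM in the FANCJ knockout and 64.3, 73.8 and 55.4 CPM in wild type. The DHX36 knockout was highest and the double knockout next, both above the other genotypes. It rose by 1.00 (SE 0.11, edgeR adjusted p = 4.27e-07) in the DHX36 knockout over wild type and by 0.53 (SE 0.10, edgeR adjusted p = 3.66e-04) in the double knockout over the FANCJ knockout. Pdk2 and Pdk3, which phosphorylate the same complex, had 1.11 to 2.79 CPM and 46.97 to 76.2 CPM and were not called, at 0.22 (SE 0.42) and -0.19 (SE 0.12) in the first comparison and -0.20 (SE 0.34) and -0.09 (SE 0.12) in the second. Pdha1 (chrX:160122209-160138413) encodes the E1 alpha subunit that these kinases phosphorylate. It had 201, 212 and 215 CPM in the double knockout, 215, 175 and 175 CPM in the DHX36 knockout, 275, 294 and 256 CPM in the FANCJ knockout and 242, 276 and 296 CPM in wild type. Each genotype without DHX36 lay below both genotypes with it. It fell by 0.53 (SE 0.10, edgeR adjusted p = 3.03e-04) in the DHX36 knockout over wild type and by 0.40 (SE 0.09, edgeR adjusted p = 0.00217) in the double knockout over the FANCJ knockout.

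Lactate dehydrogenase converts pyruvate and lactate into each other. Ldha (chr7:46841475-46855627), the isoform that favours lactate production, had 444, 452 and 533 CPM in the double knockout, 635, 519 and 562 CPM in the DHX36 knockout, 459, 545 and 459 CPM in the FANCJ knockout and 386, 441 and 467 CPM in wild type. The DHX36 knockout was above wild type in every library, while the double knockout overlapped both. It rose by 0.41 (SE 0.10, edgeR adjusted p = 0.00478) in the DHX36 knockout over wild type and was at -0.03 (edgeR adjusted p = 0.82) in the double knockout over the FANCJ knockout. Ldhb (chr6:142490249-142507957), the isoform of oxidative tissue, had 12.3, 14.6 and 19.4 CPM in the double knockout, 20.9, 22.4 and 22.3 CPM in the DHX36 knockout, 20.1, 22.96 and 18.5 CPM in the FANCJ knockout and 25.4, 24.7 and 27.6 CPM in wild type. Wild type was highest in every library and double knockout replicates 1 and 2 were lowest. Its log2 fold change was -0.24 (edgeR adjusted p = 0.255) in the DHX36 knockout over wild type and -0.43 (SE 0.15, edgeR adjusted p = 0.0248) in the double knockout over the FANCJ knockout. The second call was lost without FANCJ knockout replicate 2 or double knockout replicate 1 or 2 (-0.39 to -0.28, edgeR adjusted p = 0.0805 to 0.156). The end of the Ldhb transcript is also found in 1 annotated gene outside the count table, so its counts are uncertain.

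Of the 7 hypoxia genes outside glycolysis, 3 rose in both comparisons, where 7.49% of all tested genes did, and none fell in either. Ak4 (chr4:101419277-101466995), a mitochondrial adenylate kinase, had 159.8, 163 and 147 CPM in the double knockout, 96.7, 99.9 and 105 CPM in the DHX36 knockout, 40.02, 41.4 and 38.5 CPM in the FANCJ knockout and 27.4, 34.8 and 36.7 CPM in wild type. Its 4 genotypes did not overlap, with the double knockout highest, then the DHX36 knockout, the FANCJ knockout and wild type. It rose by 1.61 (SE 0.10, edgeR adjusted p = 3.80e-10) in the DHX36 knockout over wild type and by 1.97 (SE 0.10, edgeR adjusted p = 1.74e-12) in the double knockout over the FANCJ knockout, 3.05-fold and 3.91-fold. Bnip3 (chr7:138890836-138909519), a mitophagy receptor on the outer mitochondrial membrane, had 56.6, 60.6 and 54.4 CPM in the double knockout, 65.2, 58.8 and 69.2 CPM in the DHX36 knockout, 35.4, 33.9 and 34.8 CPM in the FANCJ knockout and 33.2, 32.3 and 32.7 CPM in wild type. Libraries without DHX36 were all above those with it. It rose by 0.98 (SE 0.10, edgeR adjusted p = 3.02e-07) and 0.72 (SE 0.10, edgeR adjusted p = 3.46e-06) in these comparisons. Ndrg1 (chr15:66929318-66969640), a stress-responsive gene long used as a mark of low oxygen, had 13.8, 18.1 and 17.9 CPM in the double knockout, 11.3, 9.2998 and 11.7 CPM in the DHX36 knockout, 10.8, 10.1 and 8.03 CPM in the FANCJ knockout and 7.52, 5.12 and 6.78 CPM in wild type. Wild type was lowest and the double knockout highest, with the single knockouts overlapping each other between them. It rose by 0.77 (SE 0.20, edgeR adjusted p = 0.00761) in the DHX36 knockout over wild type, a call lost without wild-type replicate 2 (0.60, edgeR adjusted p = 0.0671), and by 0.75 (SE 0.16, edgeR adjusted p = 0.00102) in the double knockout over the FANCJ knockout.

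The other hypoxia genes were not called in either comparison. Bnip3l, the relative of Bnip3, had 139 to 194 CPM and was at 0.19 (edgeR adjusted p = 0.108) and 0.16 (edgeR adjusted p = 0.139). Vegfa, the vascular growth factor, had 7.57 to 10.9 CPM and was at -0.07 (edgeR adjusted p = 0.815) and 0.08 (edgeR adjusted p = 0.729). The collagen prolyl hydroxylase subunits P4ha1 and P4ha2 had 3.53 to 10.3 CPM and 7.52 to 14.1 CPM. They were at 0.12 (SE 0.30) and 0.49 (SE 0.18) in the first comparison, and at -0.57 (SE 0.25) and -0.14 (SE 0.16) in the second. Hif1a itself, the HIF alpha subunit, was at 91.96 to 132 CPM over the 12 libraries, and at 0.12 (edgeR adjusted p = 0.394) and -0.13 (edgeR adjusted p = 0.303). Its activity is set mainly through protein stability, which transcript counts do not measure.

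Of Hif1a and the prolyl hydroxylases, none was called in the DHX36 knockout over wild type and 2 of 3 fell in the double knockout over the FANCJ knockout. Egln3 (chr12:54178981-54203860), a hydroxylase that marks HIF alpha and is itself a HIF target, had 13.98, 14.7 and 13.96 CPM in the double knockout, 28.4, 22.9 and 27.96 CPM in the DHX36 knockout, 38.2, 41.9 and 35.02 CPM in the FANCJ knockout and 36.3, 31.2 and 29.7 CPM in wild type. The double knockout lay far below the other genotypes. Its log2 fold change was -0.28 (edgeR adjusted p = 0.0968) in the DHX36 knockout over wild type and -1.44 (SE 0.12, edgeR adjusted p = 4.71e-09) in the double knockout over the FANCJ knockout. Egln1, the main oxygen-sensing hydroxylase, had 19.7 to 30.6 CPM. It was at -0.05 (edgeR adjusted p = 0.829) in the first comparison and was lower in the second, at -0.32 (SE 0.12, edgeR adjusted p = 0.0356). That call was lost without FANCJ knockout replicate 1 or 2 or double knockout replicate 2 (-0.31 to -0.22, edgeR adjusted p = 0.0847 to 0.192), and with libraries thinned to equal depth it was -0.12 (edgeR adjusted p = 0.607).

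FANCJ loss could be read likewise, as the FANCJ knockout over wild type and as the double knockout over the DHX36 knockout. In the FANCJ knockout over wild type none of the 36 genes was called by edgeR or by DESeq2, where 2.07% of all tested genes changed. Before adjustment, 10 of the 36 (27.8%) had an edgeR p under 0.05, against 15% of all tested genes. The libraries of these genotypes did not overlap for 14 of the 36 (38.9%), against 18.7% of all tested genes. The largest differences were -0.72 (edgeR adjusted p = 0.0763) for Aldoc, 0.71 (edgeR adjusted p = 0.256) for P4ha1 and 0.61 (edgeR adjusted p = 0.147) for Ndrg1. In the double knockout over the DHX36 knockout, 2 of the 36 were higher and 10 were lower, where 19.7% of all tested genes changed (8.28% higher, 11.4% lower). Libraries did not overlap for 17 of the 36 (47.2%), against 36.9% of all tested genes. The median log2 fold change over the 36 genes was 0.05 in the first comparison and -0.16 in the second. Ak4 and Ndrg1 were the higher genes, at 0.64 (SE 0.09, edgeR adjusted p = 2.33e-05) and 0.60 (SE 0.16, edgeR adjusted p = 0.00867). The lower genes included Tpi1 at -1.18 (SE 0.11, edgeR adjusted p = 1.22e-07), Egln3 at -0.90 (SE 0.12, edgeR adjusted p = 1.32e-05), Slc2a3 at -0.82 (SE 0.08, edgeR adjusted p = 1.25e-07) and Pfkfb3 at -0.74 (SE 0.16, edgeR adjusted p = 0.00225). Pdk1 fell by 0.64 (SE 0.10, edgeR adjusted p = 7.75e-05) and Gapdh by 0.64 (SE 0.10, edgeR adjusted p = 1.43e-04).

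The remaining lower genes were less stable. Eno2 was at -1.14 (SE 0.34, edgeR adjusted p = 0.019), lost without DHX36 knockout replicate 2 or 3 or double knockout replicate 1 or 3 (-1.19 to -0.98, edgeR adjusted p = 0.0511 to 0.0885). Ldhb was at -0.51 (SE 0.14, edgeR adjusted p = 0.0133), lost without double knockout replicate 1 or 2 (-0.48 to -0.37, edgeR adjusted p = 0.057 to 0.0992). Slc16a1 was at -0.31 (SE 0.10, edgeR adjusted p = 0.0344), lost without any DHX36 knockout replicate or double knockout replicate 2 or 3 (-0.32 to -0.22, edgeR adjusted p = 0.0655 to 0.171). Slc16a3 was at -0.45 (SE 0.16, edgeR adjusted p = 0.0488), lost without any 1 of 9 of the 12 libraries in turn (-0.51 to -0.31, edgeR adjusted p = 0.053 to 0.234). Across the 36 genes the fold changes of both FANCJ comparisons had a Pearson correlation of 0.22 and a Spearman correlation of 0.22, against 0.15 and 0.075 across all tested genes, with the limits given above for genes as points.

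**Figure D4:**
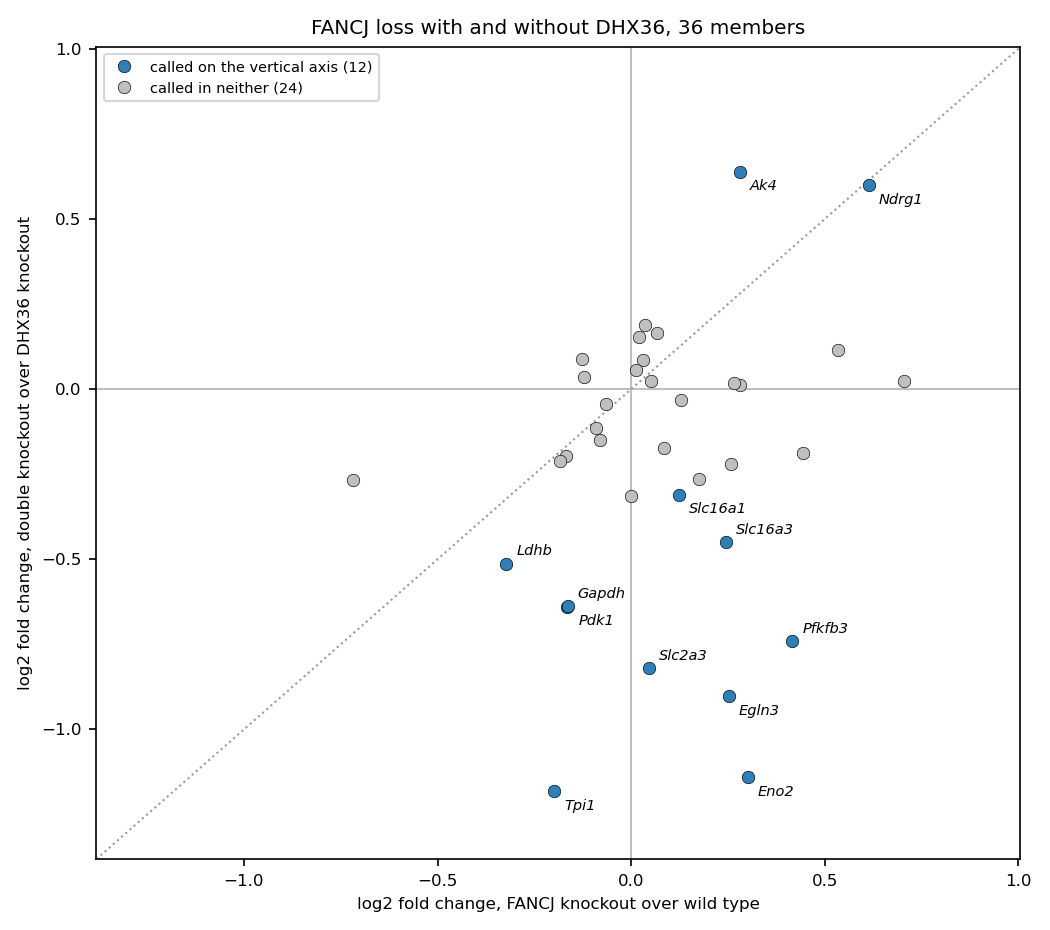
Each point is 1 of the 36 genes, with its log2 fold change in the FANCJ knockout over wild type (horizontal) and in the double knockout over the DHX36 knockout (vertical). Blue points passed an adjusted p of 0.05 on the vertical axis, no gene passed on the horizontal one, and the dotted line marks equal values. Of the 12 blue points, Ak4 and Ndrg1 lie above 0 and Tpi1 and Eno2 lie lowest.

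The difference between these FANCJ effects, with DHX36 absent minus with DHX36 present, was tested as an interaction. Of the 36 genes, 6 were lower and none was higher, where 8.79% of all tested genes changed (2.73% higher, 6.06% lower), and 13 (36.1%) had an unadjusted edgeR p under 0.05, against 22.7% of all tested genes. Without wild-type replicate 1, Ak4 was higher (0.47, edgeR adjusted p = 0.0392). DESeq2 called none higher and 8 lower, and leaving out 1 library gave 4 to 7 lower. The lower genes were Pfkfb3 at -1.16 (SE 0.22, edgeR adjusted p = 0.00154), Egln3 at -1.15 (SE 0.17, edgeR adjusted p = 1.31e-04), Tpi1 at -0.98 (SE 0.16, edgeR adjusted p = 2.53e-04) and Slc2a3 at -0.87 (SE 0.11, edgeR adjusted p = 1.35e-05), with Slc2a1 at -0.48 (SE 0.15, edgeR adjusted p = 0.0436) and Pdk1 at -0.47 (SE 0.15, edgeR adjusted p = 0.0482). The last pair passed narrowly. Slc2a1 was lost without wild-type replicate 1 or 2, DHX36 knockout replicate 1 or 2, FANCJ knockout replicate 1 or 2, or double knockout replicate 1 or 2 (-0.50 to -0.36, edgeR adjusted p = 0.0641 to 0.125). Pdk1 was lost without wild-type replicate 1 or 3, DHX36 knockout replicate 1 or 2, or any FANCJ or double knockout replicate (-0.52 to -0.38, edgeR adjusted p = 0.0522 to 0.148). For Tpi1 the double knockout was at 72.7 ± 3.81 CPM, against 165 ± 28.9 CPM in the DHX36 knockout, 116 ± 8.78 CPM in the FANCJ knockout and 134 ± 13.8 CPM in wild type (SD, n = 3). The interaction uses all 12 libraries, and so shares libraries with every comparison above.

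The double knockout over wild type holds both losses at once and shares libraries with the other comparisons. In it, 5 of the 36 genes were higher and 10 were lower, where 33.9% of all tested genes changed (16.6% higher, 17.3% lower). Libraries did not overlap for 21 of the 36 (58.3%), against 45.2% of all tested genes. The higher genes were Ak4 at 2.25, Pfkp at 2.09, Ndrg1 at 1.37, Bnip3 at 0.81 and Pdk1 at 0.37. Hk2, at 0.27 (edgeR adjusted p = 0.0515), just missed the threshold and was called higher in 9 of the alternatives, among them no expression filter (edgeR adjusted p = 0.0302) and a replicate block (edgeR adjusted p = 0.036). The lower ones were Pfkfb3 at -1.61, Slc2a3 at -1.55, Aldoc at -1.38, Egln3 at -1.19, Tpi1 at -0.88, Slc2a1 at -0.79, Ldhb at -0.76, Slc16a1 at -0.61, Pdha1 at -0.38 and Gapdh at -0.34. The edgeR adjusted p was at most 0.0167 among these 15. Gapdh was lost without wild-type replicate 1 (-0.32, edgeR adjusted p = 0.0522) or double knockout replicate 1 (-0.21, edgeR adjusted p = 0.128), and Pdk1 without wild-type replicate 3 (0.26, edgeR adjusted p = 0.0753).

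Where several genes encode 1 enzyme step or transporter class, the share of the family's counts held by each isoform does not depend on how libraries are scaled. Shares compare genotypes only, since 3′ tag counts of different genes were not made comparable with each other. Means of 6 libraries without and 6 with each helicase were compared by an exact two-sided permutation test within the other genotype, whose smallest p is 0.005, adjusted over the 12 shares tested. Pfkp held 70.0 ± 2.98% of phosphofructokinase counts in the double knockout, 69.2 ± 1.10% in cells lacking DHX36 alone, 38.4 ± 4.10% in cells lacking FANCJ alone and 40.5 ± 2.38% in wild type (SD, n = 3). Without DHX36 the mean share was 69.6%, against 39.4% with it (adjusted exact permutation p = 0.015). Pdk1 held 61.0% of the Pdk1, Pdk2 and Pdk3 counts without DHX36, against 45.6% with it (adjusted exact permutation p = 0.015). Its share was 48.9% without FANCJ, against 57.7% with it (adjusted exact permutation p = 0.0257). In cells without DHX36 the Pdk1 share was 54.4 ± 2.32% in the double knockout and 67.7 ± 5.12% in the DHX36 knockout (SD, n = 3). In cells with DHX36 it was 43.5 ± 1.91% in the FANCJ knockout and 47.7 ± 3.81% in wild type (SD, n = 3). Those libraries overlapped, at 41.5 to 45.2% and 43.4 to 50.8%. Slc2a3 held 71.8% of the Slc2a1 and Slc2a3 counts without DHX36, against 76.7% with it (adjusted exact permutation p = 0.0333), and 71.5% without FANCJ, against 77.0% with it (adjusted exact permutation p = 0.0257). The difference for DHX36 did not pass without wild-type replicate 2 (-4.23 points, adjusted exact permutation p = 0.06) or DHX36 knockout replicate 1 (adjusted exact permutation p = 0.0533). By genotype its share was 67.6 ± 0.984% in the double knockout, 75.9 ± 2.07% in cells lacking DHX36 alone, 75.4 ± 0.498% in cells lacking FANCJ alone and 78.0 ± 2.65% in wild type (SD, n = 3).

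Shares of the dominant lactate dehydrogenase and aldolase isoforms shifted by less than 2 points. Ldha held 96.6% of Ldha and Ldhb counts without DHX36, against 95.1% with it (adjusted exact permutation p = 0.015), and 96.4% without FANCJ, against 95.3% with it (adjusted exact permutation p = 0.024). Aldoa held 99.5% of Aldoa and Aldoc counts without DHX36, against 99.0% with it (adjusted exact permutation p = 0.015). Without FANCJ its share was 99.4%, against 99.1% with it (adjusted exact permutation p = 0.03), a call that was lost at equal depth (difference 0.132 points, adjusted exact permutation p = 0.107). The Hk2 share of Hk1 and Hk2 counts was 81.8% without DHX36, against 77.3% with it, which did not pass (adjusted exact permutation p = 0.072). It passed without DHX36 knockout replicate 2 (difference 5.76 points, adjusted exact permutation p = 0.024). Neither Pfkp nor Hk2 passed for FANCJ, with differences of -0.65 and -0.64 points (adjusted exact permutation p = 0.76 for each).

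**Figure D5:**
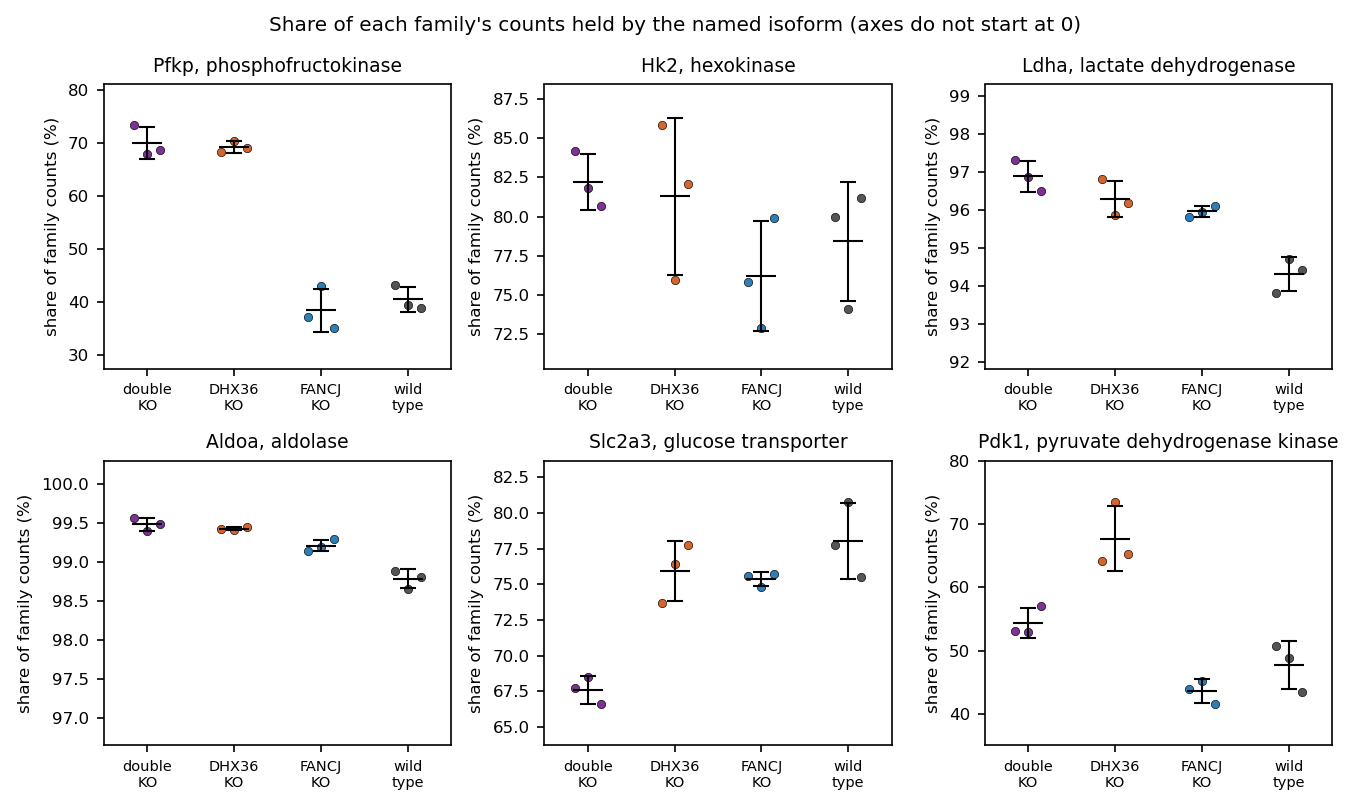
Share of each family's counts (%) held by the named isoform in each library, with 1 point per library, the mean as a long bar and the SD as whiskers (n = 3 per genotype), on axes that do not start at 0. The Pfkp and Pdk1 shares are higher in the double knockout and the DHX36 knockout, and the Slc2a3 share is lowest in the double knockout.

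Genes around these pathways were read from 7 further lists, again against 24.4% and 36.8% of all tested genes changed in the comparisons for DHX36 loss. Of 8 tested transporters of glucose, lactate and pyruvate, 2 were higher and none lower in the DHX36 knockout over wild type (25%), and 1 was higher and 2 lower in the double knockout over the FANCJ knockout (37.5%). The largest rise was that of Mpc1, a subunit of the mitochondrial pyruvate carrier, at 31.8 ± 2.09 CPM in the double knockout, 27.3 ± 1.86 CPM in the DHX36 knockout, 12.9 ± 2.12 CPM in the FANCJ knockout and 10.96 ± 2.21 CPM in wild type (SD, n = 3). It rose by 1.32 (SE 0.15, edgeR adjusted p = 1.71e-06) in the DHX36 knockout over wild type and by 1.28 (SE 0.14, edgeR adjusted p = 1.97e-07) in the double knockout over the FANCJ knockout. Among 34 tested enzymes of glycolysis, glycogen and the pentose phosphate pathway outside the 36, 5 were higher and 3 lower in the first comparison (23.5%), and 5 and 2 in the second (20.6%). The first share is near that of all tested genes and the second below it. Gpd1, which makes glycerol 3-phosphate, was at 1.65 (edgeR adjusted p = 0.0261) and 1.75 (edgeR adjusted p = 0.00452), and averaged 1.71 ± 0.0572 CPM in the double knockout and 0.4798 ± 0.0449 CPM in wild type (SD, n = 3). Fbp1, a fructose bisphosphatase of gluconeogenesis, was at 2.77 (SE 0.91, edgeR adjusted p = 0.0296) in the first comparison, where the libraries overlapped. In the second it was at 1.93 (edgeR adjusted p = 0.00307). It averaged 2.89 ± 0.577 CPM in the double knockout and 0.147 ± 0.255 CPM in wild type (SD, n = 3). Its lowest wild-type library was at 0. Galm, which prepares galactose for entry, fell in both, at -0.90 (edgeR adjusted p = 0.0122) and -1.04 (edgeR adjusted p = 0.00105). In the double knockout over the DHX36 knockout 4 of the 34 were higher and 3 lower (20.6%), near the 19.7% of all tested genes. Among the lower ones was Tigar, a fructose bisphosphatase induced by p53, at -0.56 (edgeR adjusted p = 1.40e-04). Of 8 further pyruvate dehydrogenase genes, 1 was higher and none lower in the first comparison (12.5%), and 2 and none in the second (25%), where the starvation-induced kinase Pdk4 was at 1.45 (edgeR adjusted p = 0.00977).

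The citric acid cycle list of 20 genes also held cytosolic enzymes such as Idh1. In the DHX36 knockout over wild type 4 were higher and 2 lower (30%), with Idh1 among the 4 at 0.31 (edgeR adjusted p = 0.0367). In the double knockout over the FANCJ knockout 4 were higher and 1 lower (25%). Suclg2, a succinyl-CoA ligase subunit, rose in both, at 0.92 (edgeR adjusted p = 3.93e-06) and 0.47 (edgeR adjusted p = 0.00197), and citrate synthase, Cs, fell in both, at -0.33 (edgeR adjusted p = 0.00779) and -0.37 (edgeR adjusted p = 0.00166). Idh1, the cytosolic isocitrate dehydrogenase, was at 82.8 ± 3.69 CPM in the double knockout, 49.4 ± 4.70 CPM in the DHX36 knockout, 44.9 ± 2.81 CPM in the FANCJ knockout and 39.6 ± 4.14 CPM in wild type (SD, n = 3), with an interaction of 0.57 (SE 0.15, edgeR adjusted p = 0.015).

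Of 18 tested regulators of HIF, 4 were higher and 2 lower in the DHX36 knockout over wild type (33.3%), and 8 and 4 in the double knockout over the FANCJ knockout (66.7%). Epas1, which encodes the HIF-2 alpha subunit, was at 31.4 ± 1.94 CPM in the double knockout, 29.8 ± 2.497 CPM in the DHX36 knockout, 9.43 ± 1.33 CPM in the FANCJ knockout and 7.57 ± 1.01 CPM in wild type (SD, n = 3). It rose by 1.97 (SE 0.15, edgeR adjusted p = 6.52e-09) in the first comparison and by 1.76 (SE 0.13, edgeR adjusted p = 1.25e-09) in the second. Cited2, which competes with HIF for the coactivator p300, fell in both, at -0.74 (edgeR adjusted p = 2.21e-06) and -0.92 (edgeR adjusted p = 2.73e-08). Siah2, a ubiquitin ligase for prolyl hydroxylases, rose in both, at 0.97 (edgeR adjusted p = 6.91e-04) and 0.57 (edgeR adjusted p = 0.0121), and Egln2, the remaining prolyl hydroxylase, rose in both as well, at 0.57 (edgeR adjusted p = 0.00135) and 0.87 (edgeR adjusted p = 3.07e-06). Vhl was higher in both comparisons for DHX36 loss, at 0.83 (edgeR adjusted p = 7.10e-05) and 0.38 (edgeR adjusted p = 0.0256), and lower in the double knockout over the DHX36 knockout, at -0.61 (edgeR adjusted p = 6.45e-04).

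Other HIF targets moved in both directions. Of 35 tested, 9 were higher and 6 lower in the DHX36 knockout over wild type, and 5 were higher and 10 lower in the double knockout over the FANCJ knockout (42.9% in each). Kdm3a, a histone demethylase, rose in both at 1.05 (edgeR adjusted p = 6.35e-05) and 1.20 (edgeR adjusted p = 2.13e-06), as did Ddit4, an inhibitor of mTORC1 signalling, at 1.28 (edgeR adjusted p = 7.30e-07) and 0.96 (edgeR adjusted p = 4.04e-06), and the secreted glycoprotein gene Stc2 at 1.54 (edgeR adjusted p = 0.00895) and 1.62 (edgeR adjusted p = 0.00163). Flt1, a VEGF receptor, was at 8.08 ± 0.857 CPM in the double knockout, 12.1 ± 0.383 CPM in the DHX36 knockout, 38.9 ± 3.47 CPM in the FANCJ knockout and 25.3 ± 4.43 CPM in wild type (SD, n = 3). It fell in both comparisons for DHX36 loss, at -1.05 (edgeR adjusted p = 1.54e-05) and -2.27 (edgeR adjusted p = 2.97e-11). In the FANCJ knockout over wild type 3 of these 35 rose and none fell (8.57%), where 2.07% of all tested genes changed. Among the 3 were Flt1 at 0.62 (edgeR adjusted p = 0.0161) and the collagen-modifying enzyme gene Plod2 at 0.53 (edgeR adjusted p = 0.023). In the interaction, 5 of the 35 were lower and none higher (14.3%), where 8.79% of all tested genes changed (6.06% lower). Among the 5 were Flt1 at -1.22 (edgeR adjusted p = 3.80e-04) and Bhlhe40, a transcriptional repressor, at -0.96 (edgeR adjusted p = 0.00838).

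Regulators of glycolytic gene expression had 6 higher and 2 lower of 21 in the DHX36 knockout over wild type (38.1%), and 6 of each in the double knockout over the FANCJ knockout (57.1%). Tsc1, an inhibitor of mTORC1, rose in both, at 1.04 (edgeR adjusted p = 3.59e-05) and 0.66 (edgeR adjusted p = 7.83e-04), while its partner Tsc2 fell in both, at -0.58 (edgeR adjusted p = 2.03e-04) and -0.40 (edgeR adjusted p = 0.0024). Mlxipl, a glucose-responsive transcription factor, was at 1.59 (edgeR adjusted p = 0.01) in the DHX36 knockout over wild type, and Esrra, a nuclear receptor of mitochondrial gene expression, at 0.90 (edgeR adjusted p = 0.00253). Lin28b, an RNA-binding repressor of let-7, was at -1.36 (edgeR adjusted p = 6.54e-07) in the double knockout over the FANCJ knockout and at -1.11 (edgeR adjusted p = 0.00315) in the interaction. Myc fell in the double knockout over the DHX36 knockout, at -0.67 (edgeR adjusted p = 2.91e-04).

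Markers of cell state moved with the genotypes as well. Their counts are to be read against 24.4% and 36.8% of all tested genes changed in the comparisons for DHX36 loss. By direction, 12.8% were higher and 11.6% lower in the first, and 18.3% and 18.5% in the second. In the FANCJ knockout over wild type 2.07% of all tested genes changed (1.45% higher, 0.619% lower). Of 10 tested genes of formative and primed pluripotency, 8 were higher and none lower in the DHX36 knockout over wild type, with 7 and 1 in the double knockout over the FANCJ knockout. Their summed level was 743 to 771 CPM in the double knockout, 849 to 914 CPM in the DHX36 knockout, 413 to 423 CPM in the FANCJ knockout and 429 to 463 CPM in wild type. Embryonic stem cell markers had 4 higher of 10 in the first comparison and 10 of 10 in the second, with none lower. Trophoblast markers summed to 315 to 334 CPM in the double knockout, 423 to 483 CPM in the DHX36 knockout, 942 to 993 CPM in the FANCJ knockout and 792 to 936 CPM in wild type, with none higher and 3 of 6 tested lower in the first comparison and 2 higher and 3 lower in the second. Fibroblast markers summed to 119 to 132 CPM in the double knockout, 337 to 343 CPM in the DHX36 knockout, 673 to 685 CPM in the FANCJ knockout and 474 to 562 CPM in wild type, with 2 of 6 tested higher and 2 lower in the first comparison and 1 higher and 4 lower in the second. Primitive endoderm markers summed to 381 to 447 CPM in the double knockout, 419 to 449.5 CPM in the DHX36 knockout, 542 to 562 CPM in the FANCJ knockout and 385 to 492 CPM in wild type. Of 9 tested, 2 were higher and 2 lower in the first comparison, and 1 was higher and 4 lower in the second. In the FANCJ knockout over wild type 5 of the 9 were higher and none lower. Mesendoderm markers summed to 83.2 to 94.8 CPM in the double knockout, 139 to 154 CPM in the DHX36 knockout, 68.6 to 92.1 CPM in the FANCJ knockout and 61.2 to 77.4 CPM in wild type, with 3 of 4 tested higher in the first comparison and 2 in the second, and none lower in either. Neuroectoderm markers summed to 128 to 143 CPM in the double knockout, 177 to 183 CPM in the DHX36 knockout, 161 to 169.6 CPM in the FANCJ knockout and 158 to 166 CPM in wild type, with 1 of 5 tested higher and 4 lower in the first comparison and none higher and 3 lower in the second. Gsc, Mesp1 and Elf5 had no count in wild type, and Mesp1 had none in the FANCJ knockout. The part of these markers in the results above was not tested.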

How the data were processed

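Transcripts were counted in 12 libraries of mouse embryonic stem cells, 3 per genotype, and the authors deposited 1 table of raw counts, whole numbers for each gene in each library. The submitters' processing notes name BWA, GRCm38 and hg38 without versions or roles, and the handling of molecular identifiers, strand and multiply aligned reads is not given in the labels. Spike-in rows (92, with 4 to 30 counts per library) were left out. Totals of 4284785 to 14721931 counts per library set the precision of low genes. Replicates had a chi-square of 4.11 to 12.5 per degree of freedom against each other, above counting error, so none was merged.

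All 12 libraries entered 1 edgeR 4.0.16 quasi-likelihood model (R 4.3.3, trimmed-mean normalisation, expression filter by genotype with a minimum count of 10), with genotype as its only term. Two-sided p-values were adjusted by Benjamini and Hochberg over 12765 genes, with a threshold of 0.05. A standard error (SE) is the log2 fold change divided by the root of its F statistic. The model was tested on simulated data with known fold changes. Alternatives were DESeq2 1.42.0, other scalings, no filter, equal depth, a replicate block, each comparison fitted alone, Eno1b added to Eno1, and leaving out each library. Scaling by library totals was added after seeing the data.

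The 36 genes and the gene lists were chosen with earlier results of these data known. Of them, those called in any comparison were to be named with values, and those called in both comparisons for DHX36 loss, or in any for FANCJ loss, with every library. Up to 4 called genes per pathway list and comparison could be named, by size of fold change, besides Dhx36 and Brip1, and some of these are not reported here. Ldha was given in every library as well, after its values were seen. Coordinates are from GENCODE M21 (GRCm38), which matched 32158 of 32285 identifiers and all 36 genes. Promoters are from RefSeq on GRCm38.p6. Transcript ends were compared with BLAST 2.17.0.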

Additional observations from a re-analysis of the deposited data

Results flagged for a closer look

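For 6 of the 36 genes the effect of FANCJ loss differed between cells without and with DHX36, by the edgeR test of that difference. The difference on the log2 scale was -1.16 for Pfkfb3, -1.15 for Egln3, -0.98 for Tpi1 and -0.87 for Slc2a3, and these calls held in every alternative run. For Slc2a1 it was -0.48 and for Pdk1 -0.47. Both of those were lost at equal depth (edgeR adjusted p = 0.0992 for Slc2a1 and 0.0825 for Pdk1), where the other 4 were still called. In all 6 the libraries of the double knockout lay below those of the DHX36 knockout. The marker sums given above differed between the genotypes too, and their part in these differences was not tested.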

How the results depend on the processing

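Among 67 called values of the 36 genes, 48 kept their call in every alternative that gave them a value (19 or 20 each), 19 lost it in at least 1 and none changed sign. Of 149 values that were not called, 13 were called in at least 1 alternative, among them Gapdh (-0.47, adjusted p = 0.0366) and Ldha (-0.44, adjusted p = 0.04) in the interaction by DESeq2. At equal depth, 12 of the calls were lost, among them Hk2, Aldoc and Egln1 in the double knockout over the FANCJ knockout and Gapdh, Slc16a1 and Ndrg1 in the DHX36 knockout over wild type. Over all genes, equal depth left 71 higher and 27 lower in the FANCJ knockout over wild type, against 185 and 79 as reported. It left 1063 and 977 in the DHX36 knockout over wild type, against 1628 and 1485. In the double knockout over the FANCJ knockout it left 1534 and 1610, against 2337 and 2365. For the double knockout over the DHX36 knockout these were 570 and 796, against 1057 and 1455, and in the interaction 160 and 422, against 348 and 774. Over the scalings, the median log2 fold change of all genes was farthest from 0 in the double knockout over the FANCJ knockout. It was 0.0665 there by library totals, against 0.0171 with the trimmed-mean normalisation.

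Leaving out 1 library gave 0 to 1 higher genes among the 36 in the interaction, against 0 as reported. It gave differences in share of -1.80 to 0.180 points for Pfkp with FANCJ loss, of 3.30 to 5.76 for Hk2 with DHX36 loss, of -1.97 to 0.498 for Hk2 with FANCJ loss and of -5.55 to -4.23 for Slc2a3 with DHX36 loss. The Pfkp and Hk2 differences for FANCJ loss, not called as reported, turned positive at 0.0286 without wild-type replicate 1 and 0.180 without FANCJ knockout replicate 3 for Pfkp. For Hk2 they did so at 0.0503 without wild-type replicate 3, 0.498 without DHX36 knockout replicate 1, 0.193 without FANCJ knockout replicate 2 and 0.177 at equal depth. Equal depth gave 0.132 for Aldoa with FANCJ loss.

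Replicate numbers did not pair the libraries. Same-numbered pairs correlated at -0.120 to 0.120, against -0.135 to 0.160 for pairs of different numbers. Only 1 of 12 libraries correlated best with its own number in every other genotype. With a replicate block, 9 of the 36 genes were higher and 5 lower in the DHX36 knockout over wild type, and 6 and 11 in the double knockout over the FANCJ knockout. The double knockout over the DHX36 knockout had 2 higher and 9 lower, and the double knockout over wild type 6 and 10, with none called in the FANCJ knockout over wild type. In the interaction 4 were lower, since Slc2a1 (-0.48, edgeR adjusted p = 0.0561) and Pdk1 (-0.47, edgeR adjusted p = 0.0563) were lost.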
